A study of Mus musculus with 10 samples.

Results

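A set of 6 genes whose loss or mutation causes cystic kidneys, *Pkd1*, *Pkd2*, *Pkhd1*, *Bicc1*, *Glis3* and *Ganab*, was followed through mouse UB (ureteric bud) organoids, CD (collecting duct) organoids and adult mouse CD cells. The 6 members were chosen by symbol from the 39273 genes of the deposited table, and all 6 were among the 24410 genes that passed the filter on low counts. The question was how far each culture stage carries the transcripts that a model of cyst formation would depend on. RNA-seq libraries were made from UB organoids after 5, 10 and 20 days of culture, from CD organoids and from adult CD cells (mCD), as 5 groups of 2 libraries. The UB organoids were grown in Matrigel in the study's UB culture medium from ureteric buds that carried 1 *Wnt11*-RFP allele on a C57BL/6 x Swiss Webster background, taken at a stage labelled embryonic day 11. CD organoids were UB organoids of day 10 moved for about a week to a differentiation medium with FGF9, the ROCK inhibitor Y27632, the Notch pathway inhibitor DAPT, the MEK inhibitor PD0325901, aldosterone and vasopressin. Adult mCD were Venus-positive cells sorted from kidneys of *Hoxb7*-Venus mice at 2 months, according to the series' design text. The sample labels of the adult libraries instead repeat the embryonic age, the *Wnt11*-RFP genotype and the word organoid. The adult cells thus differ from the organoids in age, in culture, in having been sorted and probably in strain and reporter allele. These cannot be told apart. No label says that the 2 libraries of a group came from separate cultures or animals, so all p-values measure only the spread between these libraries, which may be technical.

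Polycystin-1, encoded by *Pkd1*, is a very large receptor-like membrane protein, and polycystin-2, encoded by *Pkd2*, is a cation channel of the TRP family. They form a complex that is found on the primary cilium, and mutation of either gene causes autosomal dominant polycystic kidney disease, in which cysts form when the dose of functional protein falls too low. Fibrocystin, encoded by *Pkhd1*, is a membrane protein of the cilium and is mutated in autosomal recessive polycystic kidney disease, in which dilated collecting ducts are the hallmark. *Bicc1* encodes an RNA-binding protein that silences target transcripts, *Glis3* a zinc finger transcription factor, and *Ganab* the catalytic subunit of glucosidase II, which trims sugars on new glycoproteins in the endoplasmic reticulum and is needed for polycystin-1 to mature.

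The libraries held between 11913613 and 24536676 counts, with the 4 libraries of UB organoids of days 5 and 10 the deepest. Levels are given as CPM, counts scaled to a common library size with edgeR's TMM factors, and 3 counts corresponded to between 0.109 and 0.241 CPM, a limit that covers counting error only. Defining markers were measured first. Summed over 7 principal cell genes, the level was between 111 and 226 CPM in UB organoids, 1334 and 1496 CPM in CD organoids and 11516 and 11983 CPM in adult mCD. *Scnn1b* and *Scnn1g* made up most of this sum in UB organoids, where *Aqp2* was at most 6.87 CPM. *Scnn1g* overlapped between day 5 (87.7 and 146 CPM) and CD organoids (120 and 128 CPM). The other genes were higher in both CD organoid libraries than in any UB organoid library. In CD organoids all 7 were under their adult level. *Aqp3* was at 23.6 and 19.0 CPM there against 1948 and 1891 CPM. *Hsd11b2* was at 44.6 and 32.8 CPM against 2634 and 2573 CPM. Summed over 6 intercalated cell genes, the level was at most 5.29 CPM in UB organoids, against 1312 and 1414 CPM in CD organoids and 2101 and 2155 CPM in adult mCD. These 6 genes did not move alike. *Foxi1* was higher in CD organoids (507 and 472 CPM) than in adult mCD (169.4 and 168.7 CPM). *Atp6v0d2* overlapped, at 279 and 266 CPM against 262 and 268 CPM. *Atp6v1b1*, *Atp6v1g3*, *Slc26a4* and *Slc4a1* were lower in CD organoids, *Slc4a1* at 2.78 and 2.25 CPM against 545 and 530 CPM. The adult libraries also carried markers of other kidney cells. All 8 proximal tubule markers were above 3 counts there and summed to 3639 and 4343 CPM, against between 5.98 and 34.3 CPM in the 8 organoid libraries, and the 4 loop of Henle markers summed to 3405 and 3607 CPM, against between 23.2 and 160 CPM. Of these 4, *Ppp1r1b* made up most of the sum in CD organoids. It went the other way, at 140 and 149 CPM there against 32.9 and 32.6 CPM in adult mCD. The 5 endothelial markers summed to 633 and 648 CPM and the 3 of the distal convoluted tubule to 465 and 514 CPM in adult mCD, against at most 2.64 and 14.4 CPM in organoids. Stromal markers, 6 in all, summed to 87.1 and 161 CPM in CD organoids, against between 9.95 and 28.7 CPM in UB organoids and 108 and 119 CPM in adult mCD. The 5 leukocyte markers summed to 46.1 and 52.0 CPM in CD organoids, at most 13.8 CPM in UB organoids and at most 29.8 CPM in adult mCD, but *Lyz2*, *C1qa* and *Cd3e* were at or under 3 counts in CD organoids. In CD organoids 4 of the 8 proximal tubule markers, *Slc5a2*, *Slc22a8*, *Slc17a1* and *Slc7a13*, were at or under 3 counts. Counts of mitochondrially encoded genes made up 9.64% and 9.86% of the adult libraries and at most 3.39% of the others. The summed level of 4 Y-linked genes was at most 0.875 CPM at days 5 and 10 and at least 230 CPM in the other 3 groups. Male cells thus left next to no transcripts at days 5 and 10 and were present in the other 3 groups. The libraries of day 20 and of CD organoids can therefore hardly have come from the cultures sequenced at day 5 or 10. A rise or fall given below between them compares different cultures. Every comparison of day 5 or 10 with day 20, CD organoids or adult mCD crosses this difference in Y-linked transcripts and the one in depth. The part of these differences in the results below was not tested, and in bulk samples fewer cells of a type and less RNA per cell cannot be told apart.

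The 6 genes lie on 5 chromosomes of GRCm38 in GENCODE M21. *Pkd1* (ENSMUSG00000032855) is on chromosome 17 from 24549834 to 24596508 and *Pkd2* (ENSMUSG00000034462) on chromosome 5 from 104459450 to 104505819, both on the plus strand. *Pkhd1* (ENSMUSG00000043760) is on chromosome 1 from 20057779 to 20618064 and *Bicc1* (ENSMUSG00000014329) on chromosome 10 from 70922832 to 71159700, both on the minus strand. Chromosome 19 holds *Glis3* (ENSMUSG00000052942) from 28258851 to 28680077 on the minus strand and *Ganab* (ENSMUSG00000071650) from 8898071 to 8916672 on the plus strand. RefSeq promoter sequences on GRCm38.p6, 250 bases before to 50 after the start, were found for 5 of the 6 members, all but *Bicc1*. The stretches before the earliest annotated start are shown for *Pkhd1*, the member with the largest change between UB organoids of day 10 and CD organoids, and for *Pkd2* and *Pkd1*, whose products form one complex but whose transcripts moved apart. Each reads 5′ to 3′ on the gene's own strand. Capitals mark the GC box GGGCGG, a motif of many promoters without a TATA box, which is in the stretch of *Pkd1* and not in the other 2.
Pkhd1, chr1:20618065-20618307, minus strand: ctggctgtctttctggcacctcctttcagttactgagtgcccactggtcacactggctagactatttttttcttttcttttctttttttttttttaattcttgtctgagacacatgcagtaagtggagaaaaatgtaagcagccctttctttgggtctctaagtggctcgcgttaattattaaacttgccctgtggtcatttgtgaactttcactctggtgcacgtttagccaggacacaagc
Pkd2, chr5:104459207-104459449, plus strand: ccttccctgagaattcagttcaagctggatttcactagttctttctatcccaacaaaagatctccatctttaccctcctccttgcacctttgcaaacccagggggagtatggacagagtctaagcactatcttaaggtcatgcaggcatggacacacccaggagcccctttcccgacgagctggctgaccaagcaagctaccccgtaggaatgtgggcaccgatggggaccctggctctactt
Pkd1, chr17:24549700-24549833, plus strand: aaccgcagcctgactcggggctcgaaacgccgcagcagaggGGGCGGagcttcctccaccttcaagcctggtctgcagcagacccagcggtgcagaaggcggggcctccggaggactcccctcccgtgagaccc

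The whole windows of these 3 genes differ in composition, with a GC content of 43.3% for *Pkhd1*, 55.3% for *Pkd2* and 66.7% for *Pkd1*, against a median of 52.7% over the 32851 RefSeq promoter windows. On both strands 2 motifs were searched in the whole windows. The GC box GGGCGG is in 35.7% of all windows and in those of *Pkd1*, *Ganab* and *Glis3*, and TGGGGGGT, searched as the core of a GLIS site, is in 1.53% of windows and in no member's. These are matches of letters and show no binding.

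*Pkhd1*, the recessive disease gene, had the largest difference of the 6 between CD organoids and UB organoids of day 10. Its level was 89.6 and 98.1 CPM in the 2 libraries of day 5, 145 and 119 CPM at day 10, 136 and 137 CPM at day 20, 354 and 336 CPM in CD organoids and 644 and 623 CPM in adult mCD. The libraries of days 10 and 20 overlapped, every UB organoid library was below both of CD organoids, and both of CD organoids were below both of adult mCD. Between day 10 and CD organoids *Pkhd1* rose 2.62-fold (log2 fold change 1.39, SE 0.0920, adjusted p = 2.60e-08 by the quasi-likelihood F-test of edgeR, adjusted over all genes by Benjamini-Hochberg). Against UB organoids of day 20, the sample nearer in depth and in Y-linked transcripts, CD organoids were higher by a log2 fold change of 1.34 (adjusted p = 5.03e-08 from edgeR). With any 1 library left out these 2 changes lay between 1.27 and 1.56 and between 1.30 and 1.36. Against adult mCD, *Pkhd1* was 6.75-fold lower at day 5, 4.81-fold lower at day 10, 4.63-fold lower at day 20 and 1.84-fold lower in CD organoids (log2 fold change -0.88, SE 0.0905, adjusted p = 2.06e-06 from edgeR). CD organoids thus held 54.4% of the adult level, or 71.5% when levels were set to library totals without TMM factors, where UB organoids of day 20 held 21.6% or 29.6%.

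*Pkd2*, the channel subunit, was the steadiest between replicates. Its level was 98.2 and 98.8 CPM at day 5, 139.8 and 140.1 CPM at day 10, 149 and 146 CPM at day 20, 135.1 and 135.6 CPM in CD organoids and 334 and 337 CPM in adult mCD. No 2 groups overlapped, yet all organoid libraries sat far under the adult ones. *Pkd2* rose from day 5 to day 10 (log2 fold change 0.51, SE 0.0629, adjusted p = 4.35e-05 from edgeR). From day 10 it moved by 0.077 to day 20 (adjusted p = 0.400 from edgeR) and by -0.048 to CD organoids (SE 0.0632, adjusted p = 0.563 from edgeR), 2 differences that did not pass the test. CD organoids were at 40.3% of the adult level, against 41.7% at day 10 and 44.0% at day 20, and the difference from adult mCD was 2.48-fold (log2 fold change -1.31, adjusted p = 1.16e-09 from edgeR). With library totals these shares were 53.0%, 58.4% and 60.3%.

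*Pkd1*, the partner of *Pkd2*, followed another course, with its highest level in UB organoids of day 20. It was at 84.3 and 91.0 CPM at day 5, 64.0 and 75.6 CPM at day 10, 171 and 150 CPM at day 20, 74.5 and 69.4 CPM in CD organoids and 101.4 and 108 CPM in adult mCD. The libraries of day 10 and of CD organoids overlapped, while both libraries of day 20 were above all others, adult mCD included. *Pkd1* rose 2.29-fold from day 10 to day 20 (log2 fold change 1.20, SE 0.0942, adjusted p = 1.13e-06 from edgeR) and was 2.22-fold lower in CD organoids than at day 20 (log2 fold change -1.15, SE 0.0961, adjusted p = 2.99e-07 from edgeR). Between day 10 and CD organoids the difference was 0.044 (SE 0.0960, adjusted p = 0.742 from edgeR), and its sign turned with library totals. Compared with adult mCD, *Pkd1* was higher at day 20 (log2 fold change 0.61, SE 0.0943, adjusted p = 6.80e-05 from edgeR) and lower at day 10 (-0.58) and in CD organoids (-0.54), but the latter 2 no longer passed with library totals (-0.097, adjusted p = 0.397, and -0.15, adjusted p = 0.241, from edgeR). The level at day 5 was 83.7% of the adult one and did not pass the test (log2 fold change -0.26, adjusted p = 0.0295 from edgeR). It passed with DESeq2 size factors (-0.36, adjusted p = 0.00445 from edgeR) and in the DESeq2 Wald test (-0.36, adjusted p = 0.00368), while with library totals the level was 106% of the adult one.

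The rise of *Pkd1* at day 20 was looked at for length and for a neighbour, since *Pkd1* is one of the longest transcripts of the kidney. Among 726 genes with a coding transcript of at least 8000 bases and a mean of at least 5 CPM, the median log2 fold change from day 10 to day 20 was 0.013. Of these, 25, with *Pkd1* itself counted, had a value at least as high as that of *Pkd1*. *Tsc2*, the tuberous sclerosis gene next to it on the opposite strand, shares 693 exonic bases with *Pkd1*, and the sources used here do not state whether strand was used in counting. The difference of *Tsc2* from day 10 to day 20 was 0.11 (adjusted p = 0.346 from edgeR). Days 10 and 20 also differ in depth and in Y-linked transcripts, and the part of this was not tested. The antisense genes that overlap *Pkhd1* and *Bicc1* had at most 3 and 11 counts.

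**Figure D1:**
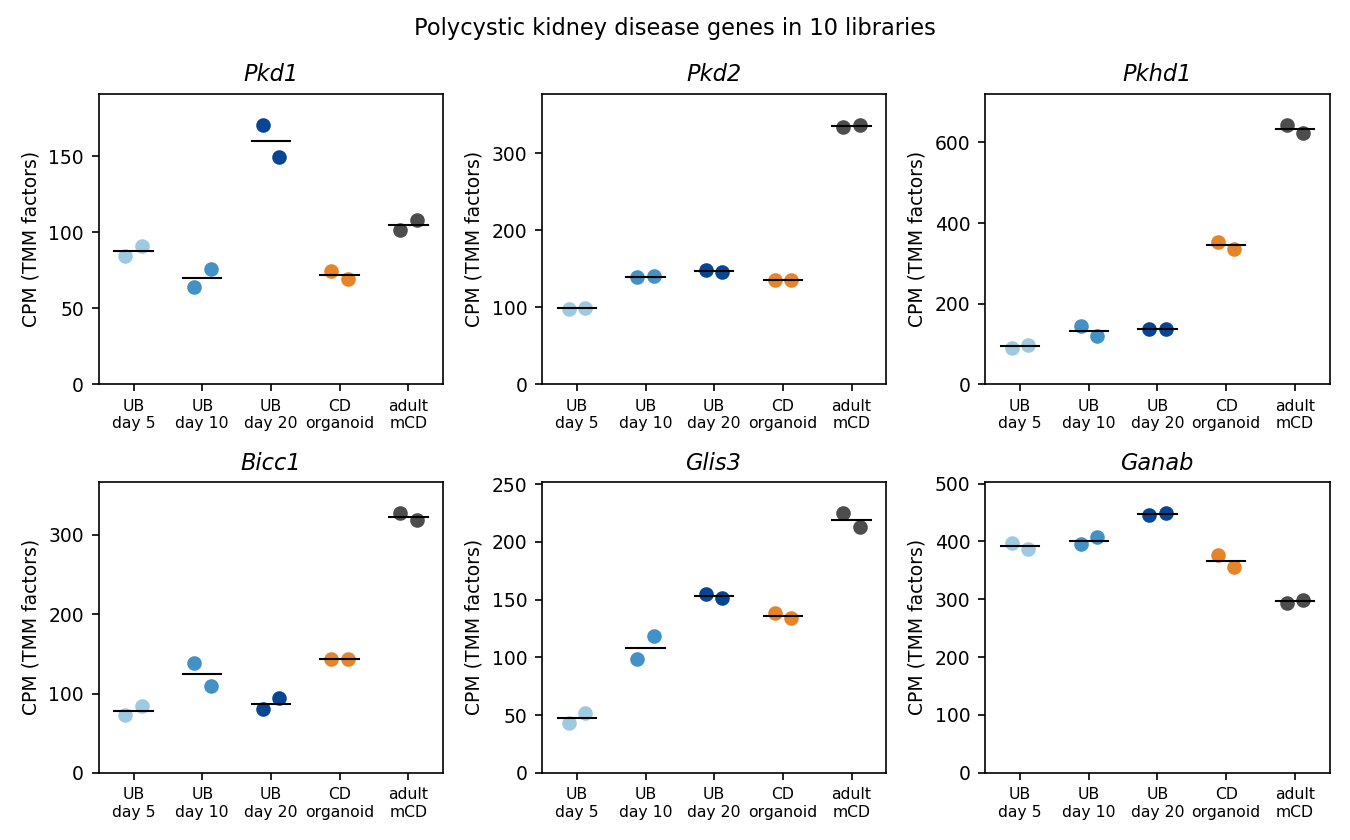
Level of each member in each of the 10 libraries, in CPM with TMM factors on a linear axis from 0, by group of 2 libraries. Points are libraries and bars are group means. *Pkhd1* steps from at most 145 CPM in UB organoids to 336 and 354 CPM in CD organoids, *Pkd1* peaks in UB organoids of day 20 at 150 and 171 CPM, and *Ganab* is lowest in adult mCD at 294 and 298 CPM.

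*Bicc1*, the RNA-binding protein gene, was below its adult level at every stage. Its level was 73.0 and 84.1 CPM at day 5, 139 and 109.6 CPM at day 10, 80.8 and 93.9 CPM at day 20, 144.0 and 143.6 CPM in CD organoids and 328 and 319 CPM in adult mCD. The libraries of days 5 and 20 overlapped, and those of day 10 were the most unlike each other. *Bicc1* rose from day 5 to day 10 (log2 fold change 0.66, SE 0.109, adjusted p = 4.09e-04 from edgeR) and fell from day 10 to day 20 (log2 fold change -0.51, SE 0.110, adjusted p = 0.00347 from edgeR), and the second change did not pass without replicate 1 of day 10 (-0.30, adjusted p = 0.0195 from edgeR) or replicate 1 of day 20 (-0.38, adjusted p = 0.0720 from edgeR). CD organoids were higher than day 20 (log2 fold change 0.72, SE 0.111, adjusted p = 1.10e-04 from edgeR), while against day 10 the difference of 0.21 did not pass the test (adjusted p = 0.128) unless replicate 1 of day 10 was left out (0.41, adjusted p = 0.00120 from edgeR). Without replicate 2 of day 10 it was 0.070 (adjusted p = 0.561 from edgeR). CD organoids held 44.5% of the adult level of *Bicc1*, or 58.4% with library totals, and UB organoids between 24.3% and 38.4%, or between 30.7% and 53.8%.

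*Glis3*, whose loss in mice gives cystic kidneys, rose in both steps between UB organoid stages. Its level was 42.9 and 51.7 CPM at day 5, 98.2 and 118 CPM at day 10, 155 and 151 CPM at day 20, 139 and 134 CPM in CD organoids and 225 and 213 CPM in adult mCD. No 2 groups overlapped. *Glis3* rose 2.28-fold from day 5 to day 10 (log2 fold change 1.19, SE 0.101, adjusted p = 1.83e-06 from edgeR) and again to day 20 (log2 fold change 0.50, SE 0.0980, adjusted p = 0.00178 from edgeR), where leaving out either library of day 20 kept the value at 0.51 or 0.52 with an adjusted p of 0.0150 or 0.0149. The difference between CD organoids and day 10 was 0.33 (adjusted p = 0.0133 from edgeR), close to the threshold of 0.01. It passed under 4 of the other settings, with values from 0.29 to 0.39, and without replicate 2 of day 10 (0.49). The value was lower without replicate 1 of day 10 (0.22, adjusted p = 0.0522 from edgeR) and with library totals (0.24, adjusted p = 0.0659 from edgeR), which did not pass. CD organoids held 62.1% of the adult level and day 20 69.9%, and both differences from adult mCD passed the test (log2 fold changes -0.69 and -0.52) but did not with library totals (-0.29, adjusted p = 0.0224, and -0.060, adjusted p = 0.627, from edgeR). The difference at day 20 also did not pass without replicate 1 of adult mCD (-0.41, adjusted p = 0.0137 from edgeR).

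*Ganab*, the glucosidase II subunit, was the only one of the 6 that was lower in adult mCD than in all organoid stages. Its level was 397 and 387 CPM at day 5, 396 and 407 CPM at day 10, 446 and 449 CPM at day 20, 377 and 356 CPM in CD organoids and 294 and 298 CPM in adult mCD. Days 5 and 10 overlapped, and the adult libraries were below all 8 others. Against adult mCD the log2 fold change was 0.40 at day 5, 0.44 at day 10, 0.59 at day 20 (SE 0.0672, adjusted p = 3.39e-06 from edgeR) and 0.31 in CD organoids (SE 0.0673, adjusted p = 0.00171 from edgeR). The difference for CD organoids did not pass without replicate 1 of CD organoids (0.26, adjusted p = 0.0290 from edgeR) or replicate 2 of adult mCD (0.30, adjusted p = 0.0146 from edgeR). CD organoids were lower than day 20 by a log2 fold change of -0.29 (adjusted p = 0.00296 from edgeR), which no longer passed when any 1 of the 4 libraries was left out, at values between -0.33 and -0.26.

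Because polycystin-1 works with polycystin-2, ratios between members were also taken within each library, as counts per kilobase of the longest coding transcript, a measure that no scaling between libraries can change. The ratio of *Pkd1* to *Pkd2* was 0.316 and 0.339 at day 5, 0.169 and 0.199 at day 10, 0.423 and 0.376 at day 20, 0.203 and 0.189 in CD organoids and 0.112 and 0.118 in adult mCD. It was thus lowest in adult mCD and highest at day 20, and day 10 and CD organoids overlapped. The ratio of *Pkhd1* to *Pkd2* was between 0.341 and 0.419 in all 6 UB organoid libraries, 1.06 and 0.999 in CD organoids and 0.777 and 0.745 in adult mCD. CD organoids were therefore above adult mCD in this ratio, although both genes were below their adult level there. The ratio of *Pkhd1* to *Pkd1* was 1.16 and 1.18 at day 5, 2.48 and 1.72 at day 10, 0.875 and 1.00 at day 20, 5.20 and 5.29 in CD organoids and 6.96 and 6.31 in adult mCD. These ratios were described and not tested.

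**Figure D2:**
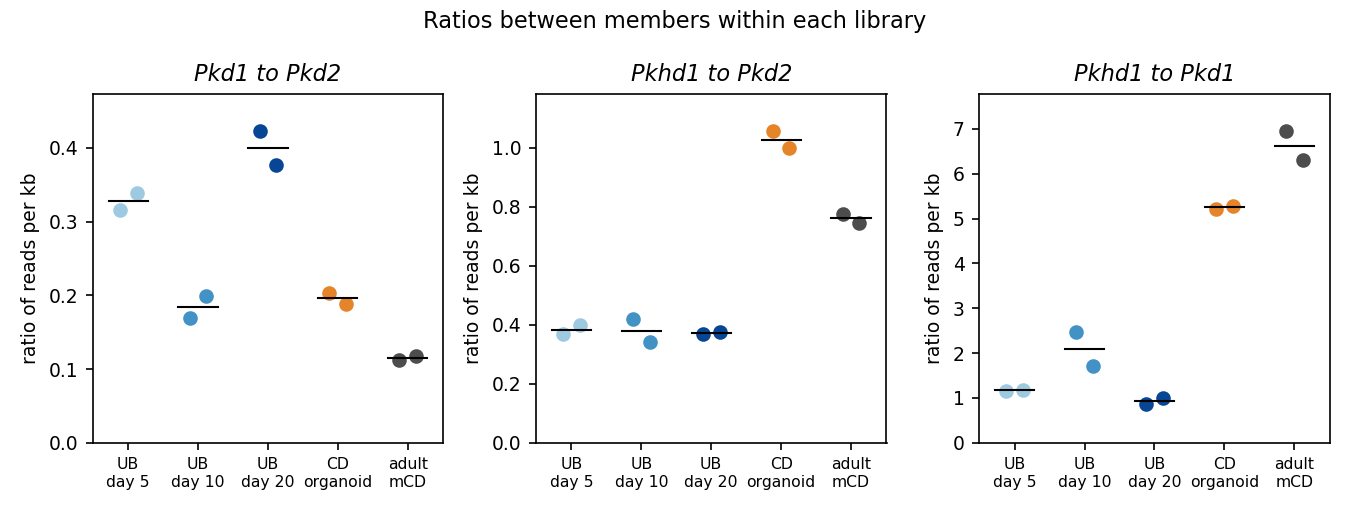
Ratios of *Pkd1* to *Pkd2*, *Pkhd1* to *Pkd2* and *Pkhd1* to *Pkd1* in each of the 10 libraries, from counts per kilobase of the longest coding transcript, on linear axes from 0. Points are libraries and bars are group means. *Pkhd1* to *Pkd2* is at most 0.419 in UB organoids and at least 0.745 in CD organoids and adult mCD.

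Within a stage, the members were ordered by the deposited RPKM, a level per kilobase of the authors' gene length, as means of 2 libraries. *Ganab* led in all 4 organoid groups, at 36.0, 36.9, 42.0 and 34.1 RPKM in the order day 5, day 10, day 20 and CD organoids. *Pkd2* was next in UB organoids, at 7.93, 11.3 and 12.1 RPKM, whereas in CD organoids *Pkhd1* (22.0 RPKM) was above *Pkd2* (11.0 RPKM). On this scale *Pkd1* was lowest in all groups but day 5, at 2.42 RPKM at day 10, 5.67 at day 20, 2.52 in CD organoids and 3.60 in adult mCD, and at day 5 (3.03 RPKM) only *Glis3* (2.13 RPKM) was lower. In adult mCD *Pkhd1* (39.6 RPKM) stood above *Ganab* (27.0 RPKM), *Pkd2* (26.9 RPKM) and *Bicc1* (22.1 RPKM). These orders depend on the length used, in organoids and in adult mCD. Per kilobase of the longest coding transcript *Ganab* and then *Pkd2* still led in UB organoids, but *Pkd1* (6.19 CPM) was just under *Glis3* (6.30 CPM) at day 5, and *Pkhd1* (10.6 CPM) was lowest at day 20, just under *Pkd1* (11.3 CPM). In CD organoids *Pkhd1* (26.7 CPM), *Bicc1* (26.5 CPM) and *Pkd2* (25.9 CPM) were then nearly level. In adult mCD the order per coding kilobase ran from *Ganab* at 76.8 CPM over *Pkd2* at 64.3, *Bicc1* at 59.5 and *Pkhd1* at 49.0 to *Glis3* at 29.2 and *Pkd1* at 7.40. The deposited lengths exceeded the longest coding transcripts unevenly, with 16191 against 12935 bases for *Pkhd1* and 11087 against 3860 bases for *Ganab*. They were between 1.13 and 2.56 times the joined exons of the genes.

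Between UB organoids of days 5 and 10, 4 of the 6 members rose (*Pkd2*, *Pkhd1*, *Bicc1* and *Glis3*), none fell and 2 did not pass the test at 0.01, where 10.5% of all genes tested rose and 11.8% fell. The median log2 fold change was 0.50 over the members and 0.021 over all genes tested. *Pkhd1* (0.49) did not pass without replicate 1 of day 5 (0.44, adjusted p = 0.0144 from edgeR), and *Pkd1* (-0.33, adjusted p = 0.0160 from edgeR) passed without replicate 2 of day 10 (-0.47, adjusted p = 7.62e-04 from edgeR) and with no filter on low counts (-0.33, adjusted p = 0.00139 from edgeR). Toward 0, *Pkd1* was at -0.22 without replicate 1 of day 10 (adjusted p = 0.0641 from edgeR), -0.27 without replicate 2 of day 5 (adjusted p = 0.105 from edgeR) and -0.18 with library totals (adjusted p = 0.181 from edgeR). From day 10 to day 20, *Pkd1* and *Glis3* rose, *Bicc1* fell and 3 members did not pass, where 8.77% of all genes rose and 9.93% fell. The medians were 0.12 and -0.098. None of the 6 changed more than 4-fold in either step, a call that 3.41% and 3.39% of all genes met.

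Between UB organoids of day 10 and CD organoids, which also differ in depth and in Y-linked transcripts, 1 of the 6 members rose, *Pkhd1*. The other 5 did not pass the test, where 18.1% of all genes rose and 19.8% fell. None of the 6 was called at more than 4-fold, against 10.7% of all genes. The median log2 fold change was 0.13 over the members and -0.14 over all genes. Compared with UB organoids of day 20, CD organoids were higher in *Pkhd1* and *Bicc1*, lower in *Pkd1* and *Ganab* and not past the test in *Pkd2* and *Glis3*, where 16.8% of all genes were higher and 17.1% lower, and none was called, against 9.46%. The medians were -0.15 and 0. The 2 comparisons share the CD organoid libraries.

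Against adult mCD, most members were lower at each stage. At day 5, 4 members were lower, *Ganab* was higher and *Pkd1* did not pass, where 28% of all genes were lower and 26.4% higher, and *Pkhd1*, *Bicc1* and *Glis3* were called at more than 4-fold lower, against 14.8% of all genes. *Bicc1* (log2 fold change -2.04) was under 4-fold without replicate 1 of day 5 (-1.95) or replicate 1 of adult mCD (-1.99). At day 10, 5 members were lower and *Ganab* higher, where 26.7% of all genes were lower and 25.7% higher, and *Pkhd1* alone was called, against 13.4% of genes called lower. At day 20, *Pkhd1*, *Pkd2*, *Bicc1* and *Glis3* were lower and *Pkd1* and *Ganab* higher, where 25.4% of all genes were lower and 22.7% higher, and again *Pkhd1* alone was called, against 12.3%, joined by *Bicc1* (log2 fold change -1.89) when replicate 2 of day 20 was left out. In CD organoids 5 members were lower and *Ganab* higher, where 21.6% of all genes were lower and 18.6% higher, and none was called in either direction, against 14.3%. With library totals *Pkhd1* was called at day 5 alone (-2.41) and was at -1.78 at day 10 and -1.76 at day 20, while *Bicc1* (-1.70) and *Glis3* (-1.87) were under 4-fold at day 5.

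The median log2 fold change of the members against adult mCD was -1.90 at day 5, -1.14 at day 10, -0.85 at day 20 and -0.78 in CD organoids, and over all genes it was 0.12, 0.21, 0.061 and 0. In absolute size the members were larger than the rest at day 5 and close to it at the other stages, with medians of 1.90, 1.14, 0.90 and 0.78 against 1.16, 1.14, 0.96 and 0.77. With library totals the medians over all genes became 0.46, 0.64, 0.47 and 0.34, so a change is best read against these. The log2 fold change of *Pkhd1* was below that of 88.8% of genes at day 5, 87.6% at day 10, 87.5% at day 20 and 76.0% in CD organoids. The corresponding shares for *Pkd2* were 82.3%, 79.1%, 78.0% and 82.2%, and for *Bicc1* 84.5%, 80.5%, 85.2% and 80.0%. All 4 comparisons rest on the same 2 adult libraries, in which markers of proximal tubule and loop of Henle were high, as given above.

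**Figure D3:**
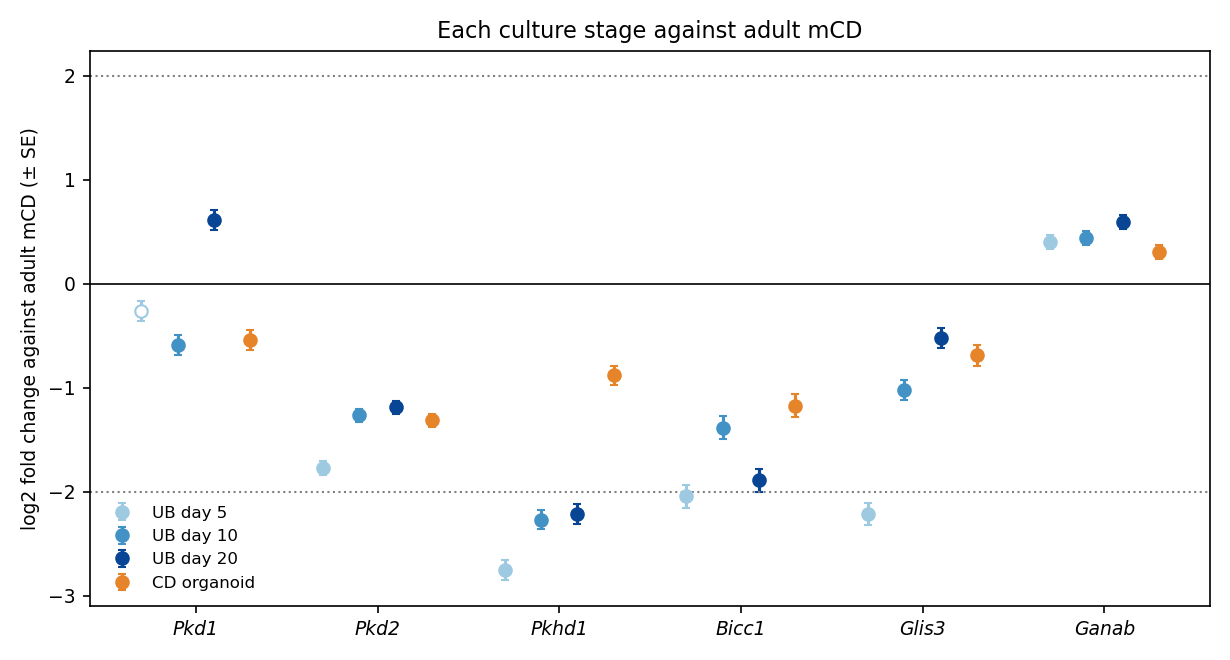
Log2 fold change of each member in each culture stage against adult mCD, with its SE, from one edgeR fit of all 10 libraries. Filled points passed the test at an adjusted p of at most 0.01, the open point (*Pkd1* at day 5) did not, and dotted lines mark a 4-fold difference. *Pkhd1* moves from -2.21 at day 20 to -0.88 in CD organoids, and *Ganab* lies above 0 at every stage.

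Genes that act with the members were taken from 5 lists. Of 9 genes of the endoplasmic reticulum that are mutated in polycystic kidney or liver disease or belong to the same pathways, 2 rose and 4 fell from day 10 to CD organoids, and against adult mCD 3 were higher and 2 lower in CD organoids, with medians of 0.054 and 0.22. Over all genes tested 18.1% rose and 19.8% fell from day 10 to CD organoids, and 18.6% were higher and 21.6% lower than in adult mCD. None of the 9 was called at more than 4-fold, against 10.7% and 14.3% of all genes. *Prkcsh*, the regulatory subunit that glucosidase II forms with *Ganab*, was named for this role after its values were seen. Its level was 232 and 230 CPM at day 5, 202 and 206 CPM at day 10, 206 and 211 CPM at day 20, 173 and 168 CPM in CD organoids and 149 and 144 CPM in adult mCD. It fell from day 10 to CD organoids (log2 fold change -0.26, adjusted p = 0.00426 from edgeR), and its 0.22 against adult mCD did not pass the test (adjusted p = 0.0123).

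Of 7 other polycystin and fibrocystin family genes, 1 rose from day 10 to CD organoids and 6 did not pass, where 18.1% of all genes rose. This was *Pkd2l1*, a channel related to *Pkd2*, with 18 and 13 counts at day 10 and 61 and 45 counts in CD organoids (log2 fold change 2.65, SE 0.347, adjusted p = 3.30e-05 from edgeR). It had no count in either adult library, so that CD organoids were at least 17.2-fold higher, taking 3 counts in each adult library as the limit. *Pkhd1l1*, a fibrocystin relative, had 3 counts in each CD organoid library and 34 and 16 in adult mCD. Against adult mCD, 2 genes of this list were higher and 1 lower, where 18.6% and 21.6% of all genes were.

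Of 22 nephronophthisis and related cilium genes, 2 rose, 11 fell and 9 did not pass from day 10 to CD organoids, where 18.1% of all genes rose and 19.8% fell, with a median log2 fold change of -0.41 against -0.14 over all genes. Against adult mCD 4 were higher, 6 lower and 12 did not pass, where 18.6% of all genes were higher and 21.6% lower, with a median of -0.093. *Rpgrip1l*, a protein of the ciliary transition zone, was at 45.2 and 39.8 CPM at day 10, 260 and 281 CPM in CD organoids and 13.3 and 13.0 CPM in adult mCD (log2 fold changes 2.67, adjusted p = 2.06e-09, and 4.35, adjusted p = 7.20e-11, from edgeR). *Dzip1l*, another transition zone gene, mutated in recessive polycystic kidney disease like *Pkhd1*, went the other way, from 61.2 and 69.5 CPM at day 5 to 18.7 and 10.2 CPM at day 10, 5.22 and 5.55 CPM at day 20 and 2.28 and 2.65 CPM in CD organoids, with 53.5 and 52.7 CPM in adult mCD. It fell from day 10 to CD organoids by 2.53 on the log2 scale (adjusted p = 3.43e-06 from edgeR), and against adult mCD its log2 fold change was -4.41 (SE 0.261, adjusted p = 8.00e-09 from edgeR).

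Of 11 transcription factors and growth regulators tied to cystic disease, 1 rose, 4 fell and 6 did not pass from day 10 to CD organoids, where 18.1% of all genes rose and 19.8% fell. In CD organoids 1 was higher and 6 were lower than in adult mCD, where 18.6% and 21.6% of all genes were. The growth gene *Myc* was at 9.04 and 10.0 CPM in CD organoids and 85.3 and 66.6 CPM in adult mCD (log2 fold change -2.99, adjusted p = 4.43e-08 from edgeR). In UB organoids *Myc* was at 14.7 and 18.4 CPM at day 5, 23.5 and 31.0 CPM at day 10 and 51.0 and 73.7 CPM at day 20. *Glis1*, a relative of *Glis3*, had 1 and 0 counts in CD organoids and 87 and 102 counts in adult mCD.

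Genes of cAMP signalling and fluid secretion, the processes through which vasopressin is known to drive cyst growth, were taken as the last list. From day 10 to CD organoids 7 of 13 rose, 3 fell and 3 did not pass, and 5 of those that rose and 1 that fell were called at more than 4-fold. Over all genes tested 18.1% rose, 19.8% fell and 10.7% were called. *Adcy5*, an adenylyl cyclase that makes cAMP, went from 1.03 and 0.656 CPM to 22.7 and 15.8 CPM (log2 fold change 4.44, SE 0.277, adjusted p = 1.44e-08 from edgeR), while *Adcy3*, another cyclase, fell from 22.7 and 19.1 CPM to 2.78 and 2.33 CPM (log2 fold change -3.00, adjusted p = 6.00e-09 from edgeR). *Adcy6*, the cyclase of the list with the highest level, was named after its values were seen. It was at 209 and 201 CPM at day 10, 212 and 223 CPM in CD organoids and 322 and 316 CPM in adult mCD. Among phosphodiesterases, which break cAMP down, *Pde1a* rose from 4.84 and 6.31 CPM to 104 and 94.9 CPM (log2 fold change 4.14, adjusted p = 1.23e-11 from edgeR) and *Pde1c* from 4.60 and 5.25 CPM to 35.6 and 41.3 CPM (log2 fold change 2.95, adjusted p = 5.94e-10 from edgeR). In adult mCD *Adcy5* was at 22.2 and 24.9 CPM, *Pde1a* at 152 and 159 CPM and *Pde1c* at 136 and 127 CPM.

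Against adult mCD, 4 of these 13 genes were higher in CD organoids, 6 lower and 3 did not pass, where 18.6% of all genes were higher and 21.6% lower. *Pde4c*, a phosphodiesterase, was at 15.4 and 15.2 CPM in CD organoids and 125 and 137 CPM in adult mCD (log2 fold change -3.09, adjusted p = 6.81e-10 from edgeR). *Kcnn4*, a potassium channel that helps drive chloride secretion, was at 45.8 and 47.8 CPM in CD organoids and 2.11 and 1.89 CPM in adult mCD (log2 fold change 4.51, adjusted p = 4.12e-11 from edgeR). It was at 2.86 and 3.75 CPM at day 5. At days 10 and 20 it was above CD organoids, at 95.7 and 81.7 CPM and at 92.4 and 95.5 CPM. *Cftr*, the chloride channel of cyst fluid secretion, was named after its values were seen. It rose from 0.555 and 0.583 CPM at day 10 to 3.35 and 3.45 CPM in CD organoids (log2 fold change 2.47, adjusted p = 6.41e-06 from edgeR), with 5.43 and 5.89 CPM in adult mCD. *Avpr2*, the vasopressin receptor of the collecting duct, had no count in CD organoids and at most 4 counts in any library, 2 and 4 of them in adult mCD. Of its 2886 exonic bases, 2347 overlap *Arhgap4* on the opposite strand, so reads of the 2 genes may not have been told apart.

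**Figure D4:**
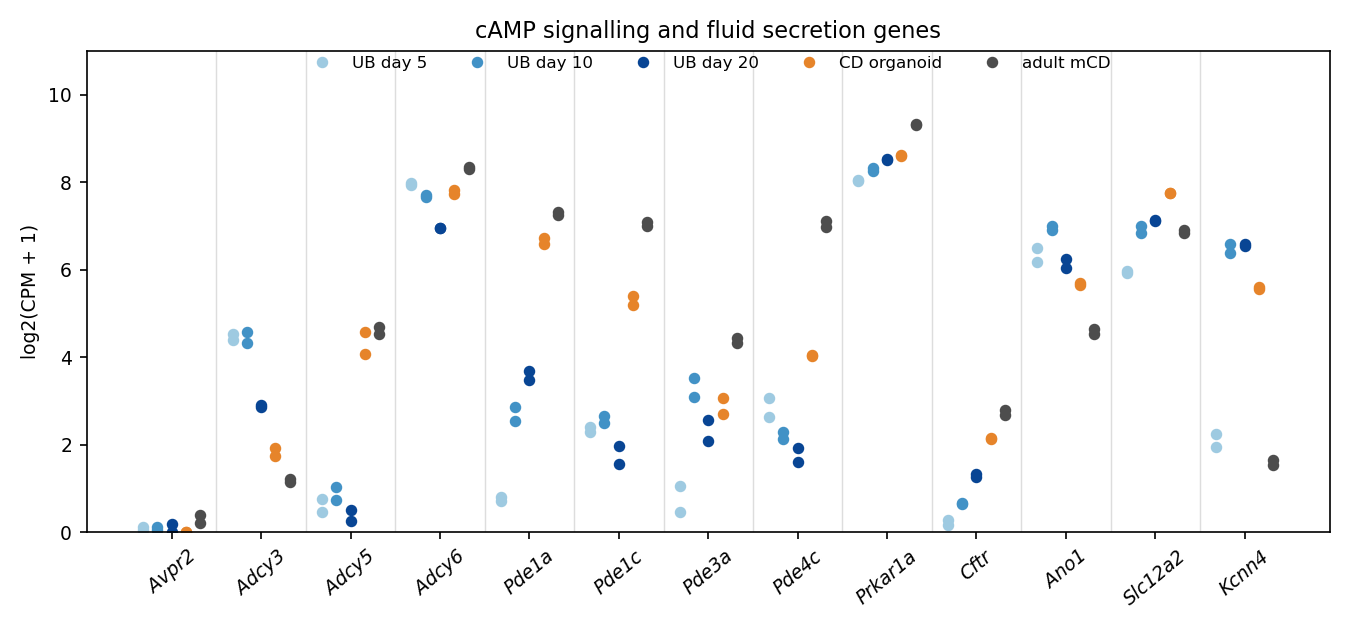
Levels of the 13 cAMP signalling and fluid secretion genes in the 10 libraries, as log2(CPM + 1). Each point is a library, coloured by group and set from left to right in the order day 5, day 10, day 20, CD organoids and adult mCD. *Adcy5*, *Pde1a* and *Pde1c* step up between UB and CD organoids, *Adcy3* steps down, and *Avpr2* is near 0 in every library.

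The genes whose pattern was most like that of a member were found by Pearson's correlation of log2(CPM + 1) over the 10 libraries, among 11831 genes with a mean of at least 5 CPM. The 10 points are 5 pairs of replicates and share the same groups and depths, so the values are a description. For *Pkhd1* the nearest were *Dhrs1* (0.998), *Tmem229a* (0.997) and *Micall1* (0.996), and for *Pkd2* *F8* and *Bpgm* (both 0.993) and *Mkks* (0.990), the last a gene of a ciliopathy. For *Pkd1* they were *Rap2a* (0.972), *Lrrc28* and *Nrcam*. *Bicc1* was nearest to *Afm* (0.991), *Rrad* (0.987) and *Srr* (0.986), *Glis3* to *Nacc2* (0.992), *Slc39a9* (0.991) and *Csgalnact2* (0.988), and *Ganab* to *Garnl3* (0.988), *Hdac3* (0.987) and *Zfp275* (0.984). Among the members themselves, *Pkhd1* and *Bicc1* were the most alike (0.931), *Pkd1* had a value of at most 0.340 with any other member, and *Ganab* ran against *Bicc1* (-0.907).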

How the data were processed

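RNA-seq of mouse UB organoids, CD organoids and adult mCD was analysed in 10 libraries, with groups taken from the sample labels. The deposited counts are whole numbers of reads per gene, for which the sources give 2 accounts. The authors' methods describe Partek Flow, with trimming, STAR alignment to mm10 with GENCODE M24 and an E/M model that shares out reads mapping to several genes. The submitters' processing notes name cutadapt 2.5, Trimmomatic 0.36, STAR, GRCm38.p6 and edgeR 3.28.1 and not Partek Flow. Which of them made this table is not stated in the sources used here, so how reads of several genes were counted is not known. The deposited RPKM, computed by the authors from these counts, were used only to order levels between genes, and the deposited scaled counts, a signal that the authors call TMM values, were not used in any result. For RNA and libraries the paper names Direct-zol and a stranded KAPA kit, the labels RNeasy and TruSeq.

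Counts were tested in edgeR 4.0.16 (R 4.3.3) by quasi-likelihood, in one fit of group means over all libraries, with TMM factors, a prior count of 1, at least 10 counts summed over the libraries (24410 of 39273 genes) and Benjamini-Hochberg adjustment over all genes tested. A gene passed when its adjusted p was 0.01 or less, and was called when it also changed more than 4-fold, as in the study's methods. SEs are approximate, being derived from the test statistic. The common dispersion was 0.00831. Tested on simulated data for CD organoids against day 10, the fit recovered 185 of 200 changed genes among 23552, with 14 false calls. The false calls were thus a larger share of all calls in this simulation than the threshold of 0.01 sets. The recovery at each size of change is not given here. All changes set in the simulation were larger than any difference of a member between organoid stages. Recovery of differences as small as those of the members that did not pass was not tested. No 2 libraries of a group agreed within sampling noise (chi-square per degree of freedom between 2.58 and 22.2). The value was 9.71 at day 5, 22.2 at day 10, 2.72 at day 20, 2.58 in CD organoids and 4.62 in adult mCD. The fit shares its spread over all groups, so p-values of comparisons with day 10 may be too small. Positions come from GENCODE M21 (GRCm38), which holds 99.7% of the identifiers, and promoters from RefSeq. Tables used Python 3.11.15, numpy 2.4.6 and pandas 2.3.3, and figures matplotlib 3.10.9.

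The members and lists were chosen with earlier results of these data known. Named are all members, up to 3 genes per list called higher and 3 called lower in CD organoids against day 10 or adult mCD, and the 3 genes most correlated with each member. The alternatives were DESeq2 1.42.0, limma 3.58.1, other size factors, filters, prior count and thresholds, a fit of only the 4 libraries compared, a replicate block, and each library left out. The length per coding transcript and the adult shares from library totals were added after the data were seen. Some genes and motifs are not reported here.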

Additional observations from a re-analysis of the deposited data

Results flagged for a closer look

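*Pkd1* stood on opposite sides of adult mCD at different stages, being higher at day 20 (log2 fold change 0.61) and lower at day 10 (-0.58) and in CD organoids (-0.54). The difference between the effects was 1.20 for day 20 against day 10 (adjusted p = 1.13e-06 from edgeR) and -1.15 for CD organoids against day 20 (adjusted p = 2.99e-07 from edgeR). Both come from the same libraries of day 20, and both libraries of that day were above all others. The lower values at day 10 and in CD organoids did not pass with library totals, while the higher value at day 20 did. Groups of 2 libraries were too small to look for a library that stands apart.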

How the results depend on the processing

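The number of members called rested on the 4-fold threshold. In the order day 10 against 5, day 20 against 10, CD organoids against day 10 and against day 20, and days 5, 10, 20 and CD organoids against adult mCD, it was 0, 0, 0, 0, 3, 1, 1 and 0 with edgeR, and the same numbers with the DESeq2 Wald test and with limma. Without the 4-fold limit it was 4, 3, 1, 4, 5, 6, 6 and 6 at 0.01 and, at 0.05, 5, 3, 2, 4, 6, 6, 6 and 6. With library totals days 5, 10 and 20 against adult mCD gave 1, 0 and 0. With 1 library left out the count was between 2 and 3 for day 5, 1 throughout for day 10, between 1 and 2 for day 20, where *Bicc1* just passed 4-fold without replicate 2 of day 20, and 0 throughout for CD organoids and for the 4 comparisons among organoids. The signs that turned all belonged to differences that did not pass. They were *Pkhd1* from day 10 to day 20 without replicate 2 of day 10 (-0.059, within -0.059 to 0.23 over all libraries left out), *Pkd1* from day 10 to CD organoids with library totals (-0.050), without replicate 1 of day 10 (-0.055) and without replicate 1 of CD organoids (-0.0066, within -0.055 to 0.19), *Pkd2* from day 10 to CD organoids with DESeq2 size factors and the DESeq2 Wald test (0.0099 and 0.0097), and *Pkd1* at day 5 against adult mCD with library totals (0.082). The cause was not tested.

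Of the 48 log2 fold changes, limma, a prior count of 5 and the replicate block changed no sign or side of the threshold, and with library totals 4 that had passed no longer did. With only the 4 libraries compared, *Pkhd1* (adjusted p = 0.0238) and *Bicc1* (adjusted p = 0.0141) between days 5 and 10 and *Bicc1* between days 10 and 20 (adjusted p = 0.0484, all from edgeR) no longer passed. The replicate numbers were not treated as pairs. Deviations of same-numbered libraries correlated at between -0.16 and 0.079 over the 8 comparisons. With 2 libraries in each group these values cannot show whether same-numbered libraries were prepared together. With the replicate block 0, 0, 0, 0, 3, 1, 1 and 0 members were called. With 2 libraries in each group, the test leans on a spread shared over all groups, and the depth of 11913613 to 24536676 counts did not limit the members, which had the lowest level at 42.9 CPM.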
